A study of Mus musculus with 6 samples.

Results

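The colony-stimulating factor receptors measured here are 6 mouse genes, Csf1r, Csf3r, Csf2ra, Il3ra, Csf2rb and Csf2rb2. Every probe set annotated to 1 of these genes and to no other was taken, which gave 10 of the 45037 probe sets that are not manufacturer's controls, and 6 of the 18193 genes on the array. Csf1r had 3 of these probe sets, Csf2ra and Csf2rb had 2 each, and Csf3r, Il3ra and Csf2rb2 had 1 each. A further probe set annotated to both Csf2rb and Csf2rb2 was left out of the members and is described beside them.

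The study sorted LSK cells, the lineage-negative bone marrow fraction positive for Kit and Sca1 which holds the blood stem cells and the earliest multipotent progenitors, by surface CD34 and Flt3. Its stated purpose was to find changes in expression that could go with the differing functions of these fractions. All cells came from the marrow of adult mice aged 10 to 14 weeks, and 2 arrays were made for each of 3 sorts: CD34-Flt3-, then CD34+Flt3-, and CD34+Flt3hi. The labels name no strain, genotype or treatment, and nothing in them states that paired arrays represent different animals or different sorts. P-values therefore measure the spread between these arrays alone, and that spread may be technical.

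These receptors receive the cytokines that drive the survival, division and maturation of myeloid cells. Csf1r, the receptor for CSF1 (M-CSF) and IL-34, is a class III receptor tyrosine kinase of the family that also holds Kit and Flt3, and it is best known from monocytes and macrophages. Csf3r, the G-CSF receptor of the neutrophil lineage, pairs with itself and signals through Jak kinases. The GM-CSF and IL-3 receptors are built from a ligand-specific alpha chain, Csf2ra or Il3ra, and a signalling beta chain. Csf2rb is the beta chain shared by GM-CSF, IL-3 and IL-5, and Csf2rb2 is a mouse beta chain that serves IL-3 only.

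Upstream sequence was read for 4 of the 6 genes from the RefSeq promoter table (build GRCm38.p6). Each stretch is the 250 bases before the start of transcription. No stretch was read for Csf1r and Csf2rb. The search passed over member entries on a whole chromosome, so a missing stretch alone does not show that a gene had no entry. Csf2rb lies on chromosome 15, which was searched, so that omission does not account for its missing stretch. The 3 shown are those with GAGGAA, a core bound by PU.1 (gene Spi1) and other ETS factors. They are shown because Spi1 and Cebpa, which encode myeloid factors known to act at these receptor genes, differed between the sorted groups as described further on. Each runs 5′ to 3′ on the strand of its gene, and capitals mark GAGGAA and GCAAT, the core bound by C/EBP factors, on either strand (TTCCTC and ATTGC are the same letters on the other strand).
Csf3r: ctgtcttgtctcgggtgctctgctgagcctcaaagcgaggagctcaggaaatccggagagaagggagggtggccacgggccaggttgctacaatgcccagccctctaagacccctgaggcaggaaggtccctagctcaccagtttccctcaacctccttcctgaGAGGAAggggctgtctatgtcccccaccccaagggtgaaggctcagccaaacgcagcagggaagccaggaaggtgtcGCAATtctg
Csf2ra: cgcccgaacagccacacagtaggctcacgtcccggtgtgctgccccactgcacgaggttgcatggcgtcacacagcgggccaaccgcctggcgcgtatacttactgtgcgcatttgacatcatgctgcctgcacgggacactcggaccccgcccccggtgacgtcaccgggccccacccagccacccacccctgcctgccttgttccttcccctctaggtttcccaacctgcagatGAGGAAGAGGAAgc
Csf2rb2: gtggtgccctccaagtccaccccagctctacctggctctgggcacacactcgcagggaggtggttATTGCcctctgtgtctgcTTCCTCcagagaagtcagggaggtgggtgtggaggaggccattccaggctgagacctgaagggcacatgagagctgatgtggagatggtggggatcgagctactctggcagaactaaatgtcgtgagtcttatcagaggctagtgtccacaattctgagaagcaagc
The Csf3r stretch is chr4:126024409-126024658 on the plus strand, with GAGGAA at bases 165 to 170 and GCAAT at bases 242 to 246 counted from its 5′ end. The Csf2ra stretch is chr19:61228419-61228668 on the minus strand, with GAGGAA at bases 237 to 242 and again at bases 243 to 248. The Csf2rb2 stretch is chr15:78305722-78305971 on the minus strand, with ATTGC at bases 66 to 70 and TTCCTC at bases 84 to 89. Il3ra had GCAAT at bases 29 to 33 of its stretch and lacked the other core. A core bound by RUNX factors, TGTGGT, was in none of the 4. Searched on both strands, GAGGAA was in 23.3% of the 32851 upstream stretches of the same length in that table, GCAAT in 23.1%, TGTGGT in 14.1%, and GAGGAA together with GCAAT in 5.24%. A match describes the letters and does not show a bound site. None of the 3 genes shown passed the main test in any comparison of the sorted groups. The part of PU.1 and C/EBP factors in their levels was not tested.

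Values are log2 array intensities, so a difference of 1 is a doubling. Each gene was read from its brightest probe set, groups were compared with limma in 1 fit of all 6 arrays, and a gene is called where its p-value, adjusted over all 18193 genes, is under 0.05. Array medians lay between 29.7 and 31.4 in linear units. Background, taken from bacterial control probe sets, was a log2 of 4.50, and the mean of 26.7% of genes lay below it. The 2 arrays of a group correlated over genes at 0.969 (CD34-Flt3-), 0.981 (CD34+Flt3-) and 0.990 (CD34+Flt3hi), and 1352, 476 and 112 genes differed over 2-fold between them. The CD34-Flt3- arrays were thus the least alike. The titles of the samples end in a code, 3 in all, whose meaning is not stated. The code named A here is found on replicate 2 in every group. Replicate 1 has code B in both CD34+ groups and code C in CD34-Flt3- cells. The arrays are of bulk RNA, in which fewer cells of a type and less RNA per cell cannot be told apart.

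Csf1r was the receptor gene that rose. It was higher in CD34+Flt3hi cells than in both other groups, and it was the only 1 of the 6 genes called in any comparison. Its brightest probe set (1419872_at, Entrez Gene 12978) read 5.79 and 6.36 in CD34-Flt3- cells, 6.82 and 7.58 in CD34+Flt3- cells, and 9.57 and 8.89 in CD34+Flt3hi cells. The 3 groups did not overlap, and every array lay above background.

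The group means of Csf1r were 6.07 ± 0.41, 7.20 ± 0.54 and 9.23 ± 0.48 (SD, n = 2 each), in the order CD34-Flt3-, CD34+Flt3- and CD34+Flt3hi. The difference of 3.16 ± 0.36 (SE) between CD34+Flt3hi and CD34-Flt3- cells was 8.91-fold (95% interval 2.35 to 3.96 on the log2 scale, limma adjusted p = 0.00117). Within code A it was 2.53. The difference of 2.03 ± 0.36 between CD34+Flt3hi and CD34+Flt3- cells was 4.08-fold (95% interval 1.22 to 2.84, limma adjusted p = 0.0447), with 1.31 within code A and 2.75 within code B. This call lay close to the threshold and was lost when any 1 array of either group was left out, with adjusted p from 0.0916 to 0.568. CD34+Flt3- and CD34-Flt3- cells, neighbours in the order, differed by 1.13 ± 0.36 (95% interval 0.32 to 1.94), which did not pass (limma adjusted p = 0.151). A moderated F test over the 3 groups called Csf1r (limma adjusted p = 0.00307), and its level in CD34+Flt3- cells lay 0.45 below the mean of the outer groups, which was not called (limma adjusted p = 0.698).

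**Figure D1:**
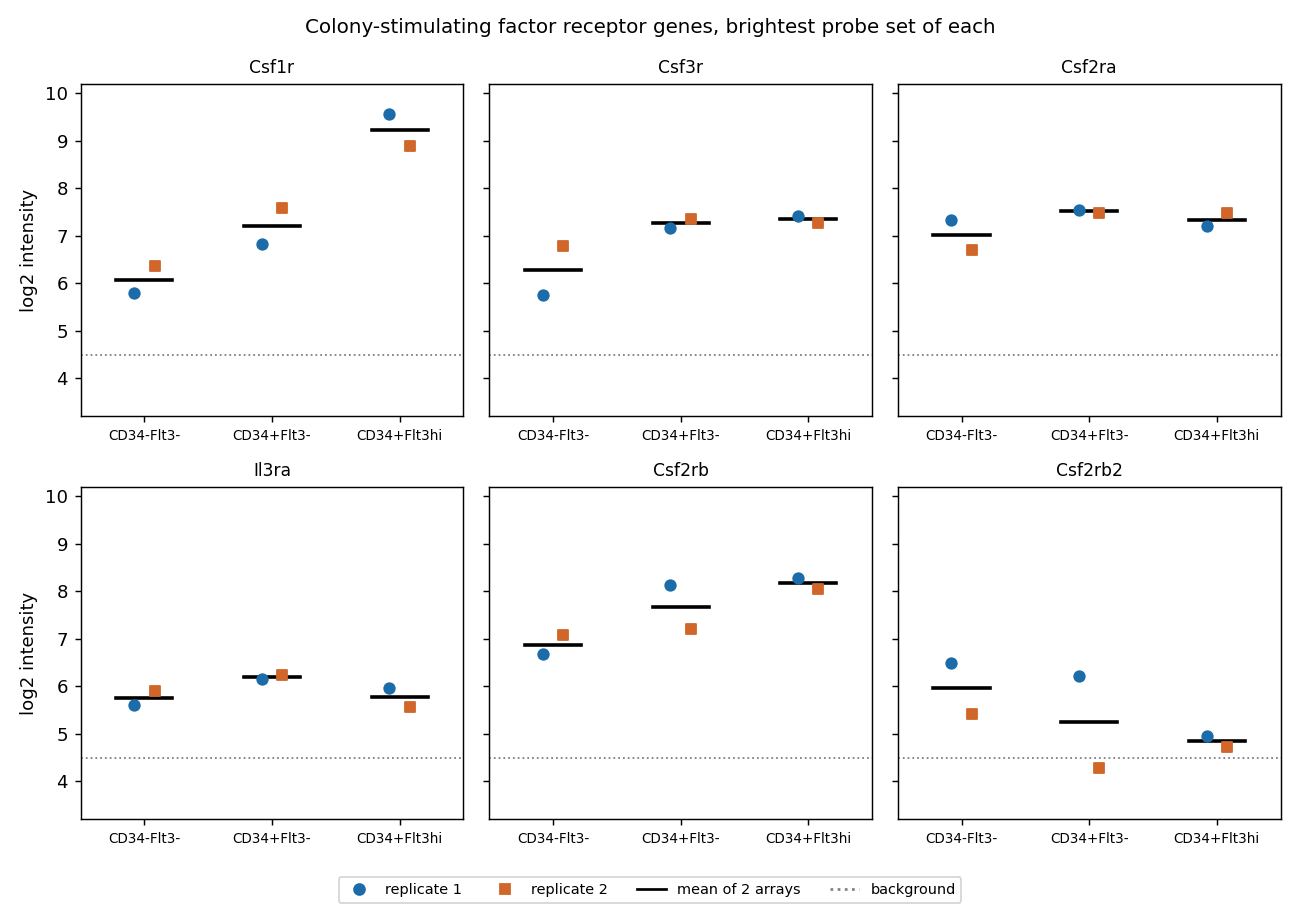
Log2 intensity of the 6 receptor genes, each from its brightest probe set, on the 2 arrays of each sorted group. Points are arrays, black bars are means of 2 arrays and the dotted line is background at 4.50. Csf1r climbs from a mean of 6.07 to 7.20 and 9.23, while the means of Csf2ra stay between 7.02 and 7.51 and those of Il3ra between 5.75 and 6.20.

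The other 2 Csf1r probe sets did not all follow the brightest. Probe set 1419873_s_at read 5.16 and 5.73 in CD34-Flt3- cells, 5.44 and 5.39 in CD34+Flt3- cells, and 7.86 and 7.17 in CD34+Flt3hi cells. It rose only at the last step, with CD34-Flt3- and CD34+Flt3- arrays overlapping. With all 45037 probe sets tested singly, it was called in CD34+Flt3hi against CD34+Flt3- cells (difference 2.10 ± 0.33, adjusted p = 0.0341; 1.78 within code A and 2.41 within code B) and against CD34-Flt3- cells (2.07 ± 0.33, adjusted p = 0.00853; 1.44 within code A). In that test the brightest probe set was called against CD34-Flt3- cells (adjusted p = 0.00172) and missed against CD34+Flt3- cells (adjusted p = 0.065).

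Probe set 1423593_a_at read 5.99 and 6.37, then 5.85 and 6.09, then 7.28 and 6.11 in the same order of groups. It was high on 1 of the 2 CD34+Flt3hi arrays, that of code B, and the other lay among the arrays of the other groups. Its difference between CD34+Flt3hi and CD34-Flt3- cells was 0.51, and -0.27 within code A (limma adjusted p = 0.605). The mean of the 3 Csf1r probe sets differed by 1.91 between CD34+Flt3hi and CD34-Flt3- cells (limma adjusted p = 0.0137) and by 1.62 between CD34+Flt3hi and CD34+Flt3- cells (limma adjusted p = 0.112). Over all probe sets tested singly, 0 of the 10 members were called in CD34+Flt3- against CD34-Flt3- cells (0.89% of all probe sets were), 1 in CD34+Flt3hi against CD34+Flt3- cells (0.295%) and 2 in CD34+Flt3hi against CD34-Flt3- cells (3.51%).

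**Figure D2:**
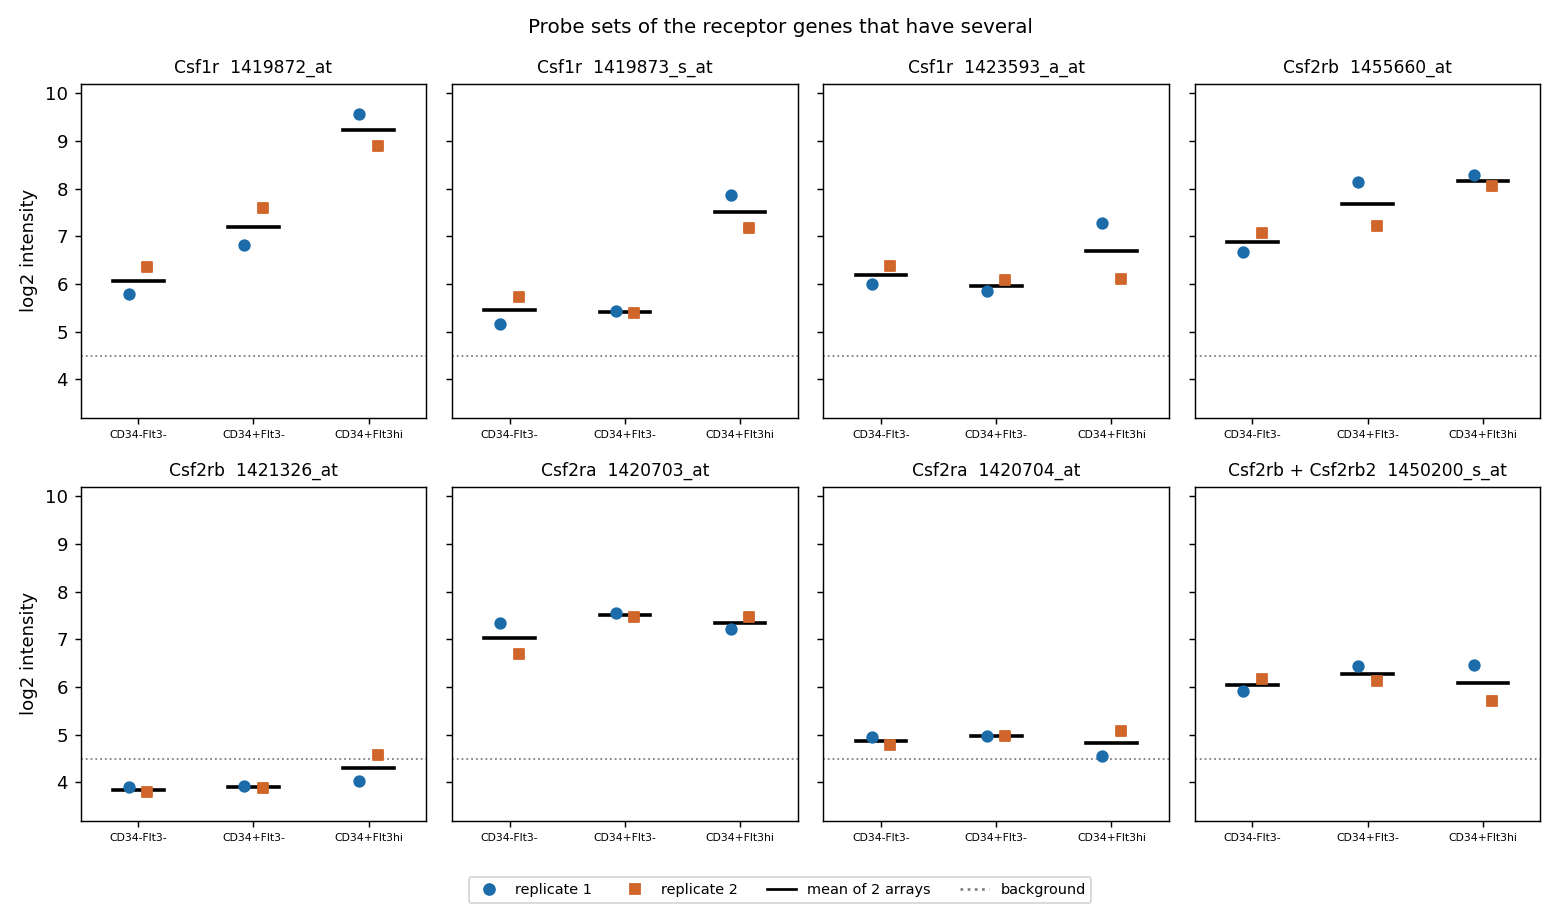
Log2 intensity of each probe set of Csf1r, Csf2rb and Csf2ra, and of the probe set shared by Csf2rb and Csf2rb2, on the 2 arrays of each group, drawn as in the plot of gene levels. 2 of the 3 Csf1r probe sets are clearly higher on both CD34+Flt3hi arrays, and Csf2rb probe set 1421326_at lies at or near background at 4.50.

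Csf3r did not pass in any comparison. Its probe set (1418806_at, Entrez Gene 12986) read 5.76 and 6.78 in CD34-Flt3- cells, 7.17 and 7.36 in CD34+Flt3- cells, and 7.42 and 7.28 in CD34+Flt3hi cells. Both CD34-Flt3- arrays lay below all 4 CD34+ arrays, and the CD34-Flt3- arrays were the ones that differed most between themselves. The means were 6.27 ± 0.72, 7.26 ± 0.14 and 7.35 ± 0.10 (SD, n = 2 each). CD34+Flt3- minus CD34-Flt3- was 0.99 ± 0.35 (SE, 95% interval 0.22 to 1.77, limma adjusted p = 0.184), and 0.58 within code A. CD34+Flt3hi minus CD34-Flt3- was 1.08 ± 0.35 (95% interval 0.30 to 1.85, limma adjusted p = 0.117), and 0.49 within code A. Without replicate 2 of the CD34-Flt3- group these differences became 1.50 (limma adjusted p = 0.0172) and 1.59 (limma adjusted p = 0.00722), so 1 array decides whether Csf3r is called. The CD34+ groups differed by 0.08, with a 95% interval from -0.69 to 0.86 (limma adjusted p = 0.992).

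Of the ligand-specific alpha chains, neither was called. The brightest Csf2ra probe set (1420703_at, Entrez Gene 12982) read 7.34 and 6.70 in CD34-Flt3- cells, 7.55 and 7.48 in CD34+Flt3- cells, and 7.21 and 7.47 in CD34+Flt3hi cells. The GM-CSF receptor alpha chain was therefore measured well above background in each group, and the CD34-Flt3- and CD34+Flt3hi arrays overlapped. Its differences were 0.49 for CD34+Flt3- minus CD34-Flt3- (95% interval -0.17 to 1.15, limma adjusted p = 0.434), -0.17 for CD34+Flt3hi minus CD34+Flt3- (-0.83 to 0.49, limma adjusted p = 0.986) and 0.32 for CD34+Flt3hi minus CD34-Flt3- (-0.34 to 0.98, limma adjusted p = 0.646). The 3 intervals reach a rise of 1.15 and a fall of 0.83 on the log2 scale at most. The other Csf2ra probe set (1420704_at) lay between 4.55 and 5.08 on all 6 arrays, close to background.

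Il3ra (probe set 1419712_at, Entrez Gene 16188) read 5.60 and 5.90 in CD34-Flt3- cells, 6.16 and 6.24 in CD34+Flt3- cells, and 5.97 and 5.57 in CD34+Flt3hi cells. Both CD34+Flt3- arrays lay above the other 4. The mean of the middle group was 0.44 above the mean of the outer groups, which did not pass (limma adjusted p = 0.607). CD34+Flt3- minus CD34-Flt3- was 0.45 (95% interval -0.17 to 1.07, limma adjusted p = 0.445) and CD34+Flt3hi minus CD34+Flt3- was -0.44 (-1.06 to 0.19, limma adjusted p = 0.905). The outer groups differed by 0.02, with an interval from -0.60 to 0.64 (limma adjusted p = 0.986).

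The beta chains differed in the direction of their means. Csf2rb, the common beta chain, had its lowest mean in CD34-Flt3- cells and its highest in CD34+Flt3hi cells, without passing the test, and Csf2rb2 had the opposite order, also without passing. The brightest Csf2rb probe set (1455660_at, Entrez Gene 12983) read 6.67 and 7.08 in CD34-Flt3- cells, 8.13 and 7.21 in CD34+Flt3- cells, and 8.28 and 8.05 in CD34+Flt3hi cells. All 4 CD34+ arrays were above both CD34-Flt3- arrays, and of the CD34+Flt3- arrays replicate 1 lay within the range of the CD34+Flt3hi arrays and replicate 2 below it.

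The Csf2rb means were 6.87 ± 0.29, 7.67 ± 0.65 and 8.17 ± 0.16 (SD, n = 2 each). The difference between CD34+Flt3hi and CD34-Flt3- cells was 1.29 ± 0.34 (SE), or 2.45-fold, with a 95% interval of 0.54 to 2.05 and 0.97 within code A. Its limma adjusted p of 0.0551 missed the threshold narrowly. Whether Csf2rb was called in this comparison varied with the processing, and also with which array was left out. CD34+Flt3- minus CD34-Flt3- was 0.80 ± 0.34 (0.04 to 1.55, limma adjusted p = 0.268), and 0.14 within code A. CD34+Flt3hi minus CD34+Flt3- was 0.50 (-0.26 to 1.25, limma adjusted p = 0.909), with 0.84 within code A and 0.15 within code B. The other Csf2rb probe set, 1421326_at, read 3.91, 3.80, 3.92, 3.89, 4.02 and 4.58 over the arrays in the same order, and 5 of these 6 lay below background.

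Csf2rb2 (probe set 1449360_at, Entrez Gene 12984) read 6.50 and 5.42 in CD34-Flt3- cells, 6.22 and 4.28 in CD34+Flt3- cells, and 4.95 and 4.73 in CD34+Flt3hi cells. Replicate 1 was higher than replicate 2 in each group, and replicate 2 of the CD34+Flt3- group lay below background. The SD of 1.38 in the CD34+Flt3- group was the widest of the 6 genes in any group. CD34+Flt3hi minus CD34-Flt3- was -1.12 ± 0.56 (SE, 95% interval -2.37 to 0.12, limma adjusted p = 0.331), and -0.69 within code A. The differences of the middle group had no settled sign: CD34+Flt3hi minus CD34+Flt3- was -0.41 (limma adjusted p = 0.979), with 0.45 within code A and -1.28 within code B.

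Csf2rb and Csf2rb2 are neighbours on chromosome 15 with 0 annotated genes between them in the GRCm38.p6 gene table, and as near copies of each other they may share hybridisation. The probe set annotated to both (1450200_s_at) read 5.92 and 6.17 in CD34-Flt3- cells, 6.45 and 6.12 in CD34+Flt3- cells, and 6.47 and 5.70 in CD34+Flt3hi cells. It followed neither gene's own probe set, with differences of 0.24, -0.20 and 0.04 in the 3 comparisons. How far each gene's probes read the other gene was not tested.

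**Figure D3:**
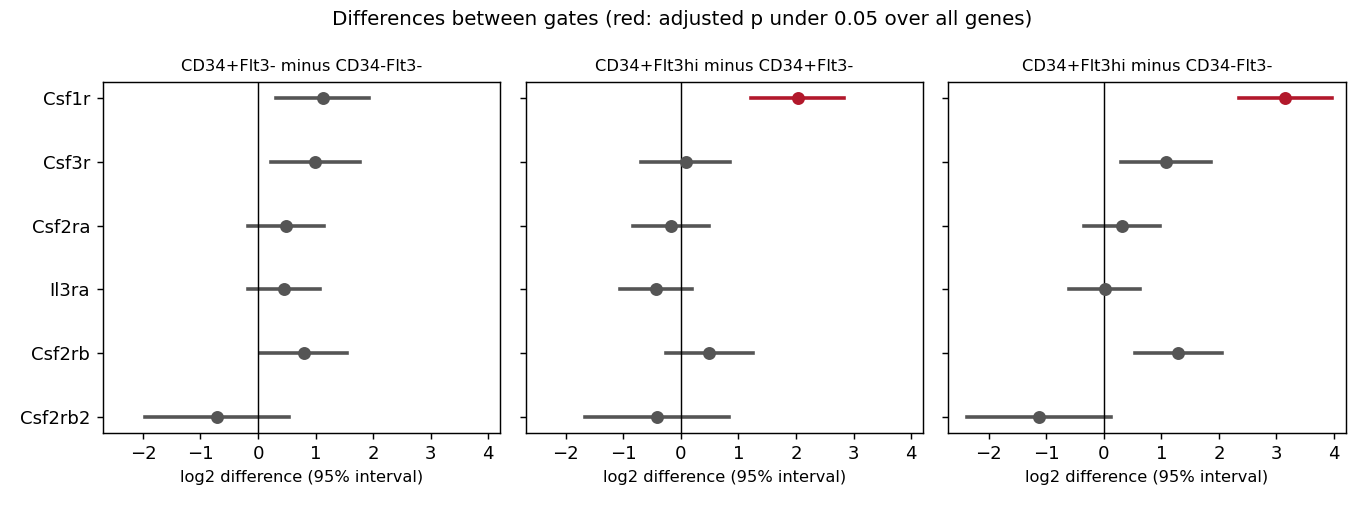
Log2 difference of each receptor gene in the 3 comparisons, with the 95% interval of the limma fit. Red marks an adjusted p under 0.05 over all genes. The Csf1r intervals in the comparisons of CD34+Flt3hi cells run from 1.22 to 2.84 and from 2.35 to 3.96, and all other intervals are grey.

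Counted together, 0 of the 6 genes were called in CD34+Flt3- against CD34-Flt3- cells, where 2.1% of all genes were, and 3 (Csf1r, Csf3r and Csf2rb) had an unadjusted limma p under 0.05, against 16.9% of all genes. In CD34+Flt3hi against CD34+Flt3- cells 1 of 6 was called, against 0.61% of all genes, and the same 1 was under 0.05 unadjusted, against 6.76%. In CD34+Flt3hi against CD34-Flt3- cells 1 of 6 was called, against 6.11% of all genes, and 3 were under 0.05 unadjusted, against 18.3%. The F test called 1 of 6, against 4.67%, with 3 under 0.05 unadjusted, against 17.3%. The contrast of the middle group with the outer groups called 0 of 6, with 0 at an unadjusted limma p under 0.05 (9.29% of all genes), and it called 0.0275% of all genes. The members' median log2 differences were 0.65, -0.04 and 0.70, beside -0.10, 0.03 and -0.07 over all genes. Arrays did not overlap for 5, 3 and 4 of the 6 genes, and for 44.2%, 40.4% and 47.9% of all genes. These comparisons share arrays, so their values are given side by side only.

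The genes most like each receptor over the 6 arrays were taken from 5063 genes that reached background in a group and ranged over at least 1 on the log2 scale. Trps1 (Pearson r 0.994), S1pr3 (0.992) and Cd53 (0.990) were nearest to Csf1r, and 45 candidates had an r above 0.95. Bin1 (0.998), Hcst (0.989) and H2-DMa (0.984) were nearest to Csf3r, Oosp3 (0.979), Lmnb1 (0.961) and Hells (0.960) to Csf2rb, and Fech (0.987), Iqgap2 (0.985) and Zfp507 (0.983) to Csf2rb2. Oosp3 lay between 3.86 and 4.94 over the 6 arrays, close to background at 4.50. Csf2ra and Il3ra ranged over less than 1, so no genes were sought for them. The 6 arrays share their groups and title codes, so these values describe the arrays only.

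The wider pathway was described from 9 lists holding 69 genes, of which 65 were measured. In CD34+Flt3- against CD34-Flt3- cells 1 rose and 4 fell, beside 0.77% and 1.33% of all genes. In CD34+Flt3hi against CD34+Flt3- cells 3 rose and 0 fell, beside 0.385% and 0.225%. Between the outer groups, in CD34+Flt3hi against CD34-Flt3- cells, 7 rose and 6 fell, beside 2.62% and 3.5%. The median differences of the 65 genes were -0.17, 0.08 and -0.07. Flt3, an antigen of the sort, is counted among those that rose in both comparisons of CD34+Flt3hi cells, and its rise is no finding. None of the 8 calls in the comparisons of neighbouring groups held when each array in turn was left out, and 6 of the 13 in CD34+Flt3hi against CD34-Flt3- cells did, those of Flt3, Pdgfrb, Irf8, Cish, Socs2 and Cd69.

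Of the 6 ligands, 0 were called. Csf1 lay between 6.60 and 7.06 on all arrays, Csf2 between 4.35 and 5.65, and Csf3 and Il3 were below background on all 6. Il5ra, the remaining alpha chain that uses Csf2rb, was also below background on all 6 arrays.

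Among the 4 relatives of Csf1r in class III, Flt3 and Pdgfrb rose. Flt3, an antigen of the sort and so no finding between these groups, read 7.65 and 9.16, then 8.84 and 9.81, then 12.01 and 11.75. Pdgfrb, a receptor of platelet-derived growth factor, read 5.87 and 6.19 in CD34-Flt3- cells, 7.88 and 7.42 in CD34+Flt3- cells, and 8.36 and 8.03 in CD34+Flt3hi cells. It was called in CD34+Flt3- against CD34-Flt3- cells (1.62, limma adjusted p = 0.0273). Its difference between CD34+Flt3hi and CD34-Flt3- cells was 2.17 (limma adjusted p = 0.00246), and that of its other probe set was 1.22. Kit, the stem cell factor receptor, and Pdgfra did not pass, with -0.98 (limma adjusted p = 0.309) and -0.24 (limma adjusted p = 0.669) in that comparison. Epor, the erythropoietin receptor, which uses the same Jak2 kinase, was at -1.30 without passing (limma adjusted p = 0.151).

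Of the 8 kinases downstream of these receptors 0 were called in any comparison, and Jak2 itself was at -0.58 in CD34+Flt3hi against CD34-Flt3- cells (limma adjusted p = 0.497). Of 16 signal transducers 1 rose, Dok2, an adaptor that restrains Ras signalling, by 1.20 in CD34+Flt3hi against CD34-Flt3- cells (limma adjusted p = 0.0278). Stat5a, a main transcription factor downstream of the beta chains, was at -1.31 in CD34+Flt3hi against CD34+Flt3- cells and did not pass (limma adjusted p = 0.105).

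Of 10 brakes on cytokine signalling 2 fell, Cish and Socs2, both known as genes that Stat5 induces. Cish read 8.66 and 8.56 in CD34-Flt3- cells, 6.83 and 6.51 in CD34+Flt3- cells, and 6.49 and 6.50 in CD34+Flt3hi cells. Its differences were -1.94 (limma adjusted p = 0.0141) at the first step and -2.11 (limma adjusted p = 0.00167) over both. Socs2 read 8.89 and 8.12, then 7.05 and 6.80, then 5.53 and 5.47. It was lower in each later group, with differences of -1.58 (limma adjusted p = 0.0367) in CD34+Flt3- and -3.004 (limma adjusted p = 0.000657) in CD34+Flt3hi cells against CD34-Flt3- cells. Of its 5 other probe sets 4 had a difference below 0 in the latter comparison, and the remaining one was at 0.37.

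Of 10 transcription factors known to act at these receptor genes, 3 rose and 2 fell in CD34+Flt3hi against CD34-Flt3- cells. Irf8, a factor of monocyte and dendritic cell development, read 5.79 and 6.17 in CD34-Flt3- cells, 5.86 and 6.84 in CD34+Flt3- cells, and 10.11 and 9.57 in CD34+Flt3hi cells. It was high in CD34+Flt3hi cells only, with differences of 3.49 from CD34+Flt3- (limma adjusted p = 0.00272) and 3.87 from CD34-Flt3- cells (limma adjusted p = 0.00049). Cebpa, a factor needed for granulocyte and monocyte progenitors, read 4.94 and 4.99, then 4.99 and 5.48, then 6.19 and 6.70, and the CD34+Flt3hi mean was 1.48 above that of CD34-Flt3- cells (limma adjusted p = 0.0163). Spi1, which encodes PU.1, read 7.41 and 7.86, then 8.14 and 8.65, then 8.95 and 8.83, and was 1.26 higher (limma adjusted p = 0.027). The genes that fell were Ets2, at -1.23 (limma adjusted p = 0.0332), and Egr1, at -1.16 (limma adjusted p = 0.0351). The calls of Spi1 and Cebpa were lost without either CD34+Flt3hi array.

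**Figure D4:**
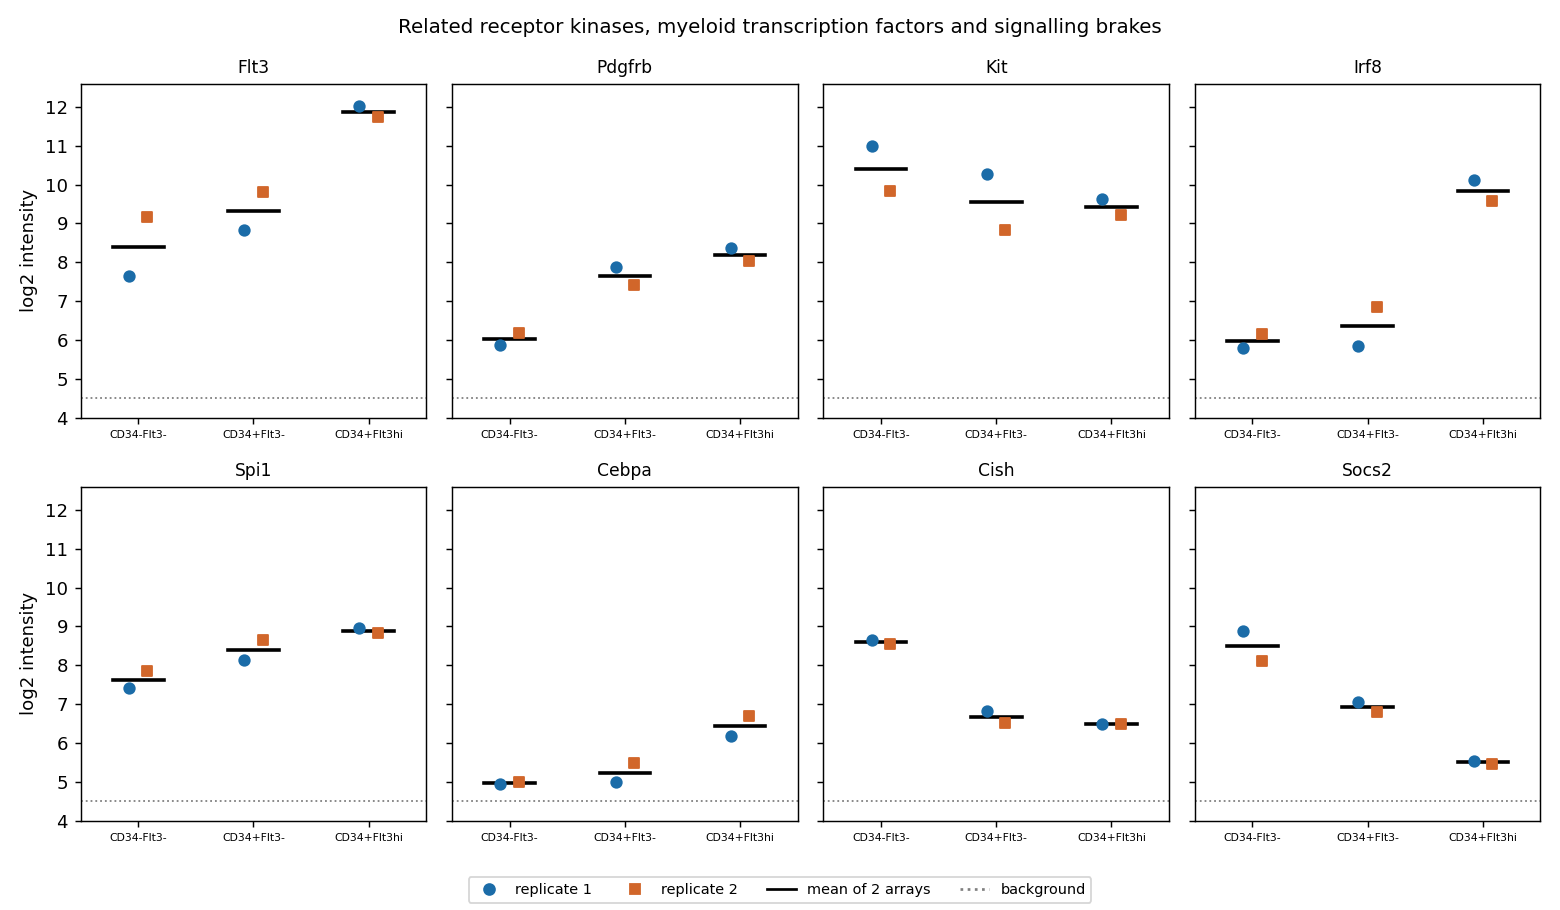
Log2 intensity of related receptor kinases (Flt3, Pdgfrb and Kit), transcription factors (Irf8, Spi1 and Cebpa) and signalling brakes (Cish and Socs2) on the 2 arrays of each group, drawn as in the plot of gene levels. Irf8 reads 10.11 and 9.57 in CD34+Flt3hi cells and under 7 elsewhere, and Socs2 falls from 8.89 and 8.12 to 5.53 and 5.47.

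Of 9 genes known to be induced by these receptors, Cd69 rose and Ccnd2, Ccnd3 and Mcl1 fell. Cd69, an early activation antigen, read 4.65 and 5.82 in CD34-Flt3- cells, 7.56 and 6.68 in CD34+Flt3- cells, and 9.91 and 9.86 in CD34+Flt3hi cells. Its difference between the outer groups was 4.65 (limma adjusted p = 0.000344). The D cyclin genes fell in CD34+Flt3hi against CD34-Flt3- cells, Ccnd3 at -1.24 (limma adjusted p = 0.0161) and Ccnd2 at -0.74 (limma adjusted p = 0.044). Mcl1, a survival gene, fell by 1.03 in CD34+Flt3- against CD34-Flt3- cells (limma adjusted p = 0.0483). Probe sets of Ccnd2 did not all move alike, since 1 of 7 was at 0.20 in CD34+Flt3hi against CD34-Flt3- cells.

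Markers of cell types that carry these receptors were read beside the members. Of 13 neutrophil genes 2, Mpo and Ctsg, rose in both CD34+ groups against CD34-Flt3- cells, and Ltf, S100a8 and Lcn2 were below background on all arrays. The summed linear intensity of the 13 was 2105 to 2415 in CD34-Flt3-, 4694 to 6303 in CD34+Flt3- and 3902 to 6048 in CD34+Flt3hi cells. Against CD34-Flt3- cells, 10 of the 13 were above 0 in CD34+Flt3- cells (median 0.12) and 7 in CD34+Flt3hi cells (median 0.04). Elane and Prtn3 were each at -0.28 in the latter comparison without passing (limma adjusted p = 0.674 and 0.695). Of 10 monocyte and macrophage genes F13a1 (by 2.15, limma adjusted p = 0.0213) and Cd68 (by 1.52, limma adjusted p = 0.0393) rose in CD34+Flt3hi against CD34-Flt3- cells, and Itgam, which encodes the CD11b antigen, was below background on all arrays. In that comparison 8 of the 10 had a difference above 0, with a median of 0.47. The monocyte and macrophage sums were 1329 to 1462 in CD34-Flt3-, 1516 to 1567 in CD34+Flt3- and 1173 to 1563 in CD34+Flt3hi cells, and only the last range overlapped the others. Lyz2, the brightest of the list, was at -0.71 between the outer groups without passing (limma adjusted p = 0.0773), against the list's median. Of 6 dendritic cell genes 1, Ccr9, rose in that comparison. Its probe set lay below background on 4 of the 6 arrays and read 4.69 and 6.79 in CD34+Flt3hi cells. The other Ccr9 probe sets were at -0.11, 0.78, -0.17 and 0.21 between the outer groups. Xcr1 was below background on all arrays, and the dendritic sums were 261 to 304, 258 to 268 and 334 to 379. Of 4 measured lineage antigens 0 were called, with sums of 170 to 204, 220 to 260 and 200 to 204. The part of these markers in the Csf1r difference was not tested.

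Markers of other lineages moved too. Of 6 megakaryocyte genes 5 fell in CD34+Flt3hi against CD34-Flt3- cells, with sums of 3272 to 3435 in CD34-Flt3-, 969 to 2189 in CD34+Flt3- and 214 to 268 in CD34+Flt3hi cells. Of these genes, Pf4 (limma adjusted p = 0.00641) and Itga2b (at -3.31, limma adjusted p = 0.00874) also fell in CD34+Flt3hi against CD34+Flt3- cells, where Csf1r was called too. The part of these markers in the Csf1r difference was not tested either. Of 6 erythroid genes Klf1 and Car1 fell in CD34+Flt3hi against CD34-Flt3- cells. Only 1 of the 6 was above 0 there, Alas2 at 0.72, which did not pass (limma adjusted p = 0.0669). The erythroid sums were 936 to 5304, 212 to 546 and 188 to 197. The CD34-Flt3- arrays differed widely, with Car1 at 11.98 and 9.19 and Klf1 at 9.92 and 7.46. The mast cell, basophil and eosinophil list held Cpa3, which fell in CD34+Flt3hi cells against both other groups. The 10 genes of this list summed to 383 to 401, 631 to 755 and 249 to 355. In CD34+Flt3hi against CD34-Flt3- cells 4 of the 10 had a difference above 0, with a median of -0.05. Mcpt8 was at 1.74 there, opposite to Cpa3, without passing (limma adjusted p = 0.135). Of 5 T and NK genes Thy1 fell in CD34+Flt3hi cells against both other groups, with sums of 231 to 261, 277 to 314 and 194 to 207, and of 6 B lineage genes 0 were called, with sums of 407 to 424, 272 to 333 and 305 to 309. In CD34+Flt3- against CD34-Flt3- cells, Ms4a2 of the mast cell list rose and Car1 and Vwf fell. Ms4a2 fell again in CD34+Flt3hi against CD34+Flt3- cells. The Ms4a2 probe set used lay below background on 4 of the 6 arrays. The other Ms4a2 probe set was at -0.05 and 0.24 in these comparisons. Of the sort antigens, Cd34 RNA was higher in both CD34+ groups than in CD34-Flt3- cells, by 1.48 (limma adjusted p = 0.0194) and 2.23 (limma adjusted p = 0.000869), as the gates define.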

How the data were processed

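LSK cell RNA, amplified in successive rounds of in vitro transcription, was hybridised to 6 Affymetrix arrays. The deposited intensity values were made by the authors with RMA, per the submitters' processing notes, which give no version. They ran from 6.50 to 24173 and were taken as linear from that range. The table held 45101 probe sets: 64 controls, 34945 naming 1 gene, 932 naming several and 9160 unnamed. Current symbols came from the gene identifiers, of which 99.4% matched. No depth exists for arrays, whose number limits precision.

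The log2 of each value was fitted with limma 3.58.1 in R 4.3.3 (empirical Bayes with an intensity trend, 3 residual and 6.86 prior degrees of freedom, median residual SD 0.24), and two-sided p-values were adjusted by Benjamini and Hochberg. A gene with several probe sets was read from the one with the highest mean. Background was the 90th percentile of 27 bacterial controls, which were picked by name and taken as not spiked. With 2 arrays a group, exact permutation p-values start at 0.333, so none is given. Correlations of deviations between same-coded arrays were 0.07, 0.31 and 0.06 by pair of groups. With 2 arrays a group and a code of unstated meaning, they do not settle whether it marks a pairing. The main fit used no block. Members and lists were chosen with earlier results of these data known. Described by name were all members and the 3 genes most like each member. Called genes of a pathway list were named by smallest adjusted p, up to 4. Pathway genes that were not called, such as Jak2 and Csf1, were named outside that order. Egr1, Mcl1 and the markers named were chosen after their values were seen. Scripts were tested on simulated data. Figures used matplotlib 3.10.9 in Python 3.11.15. Some of the listed genes were not analysed here.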

Additional observations from a re-analysis of the deposited data

How the results depend on the processing

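The call of Csf1r in CD34+Flt3hi against CD34-Flt3- cells held under every alternative run. In CD34+Flt3hi against CD34+Flt3- cells the count of 1 receptor gene became 0 with no intensity trend (Csf1r adjusted p = 0.0616), with quantile normalization repeated (0.076), with the mean of all probe sets (0.112) and with all probe sets tested singly (0.065), and it was 0 to 1 when each array was left out. In CD34+Flt3hi against CD34-Flt3- cells the count of 1 became 2, by Csf2rb, with the title code as a random replicate block (Csf2rb adjusted p = 0.0497), with quantile normalization repeated (0.038), with dim genes left out (0.0484), with only the 4 arrays compared (0.04) and at an adjusted p under 0.10, and it was 1 to 3 with each array left out. In CD34+Flt3- against CD34-Flt3- cells the count of 0 genes was 0 to 1, and the F test's count of 1 was 1 to 2. Tested singly, the probe set counts of 0, 1 and 2 became 0 to 1, 0 to 2 and 1 to 3 with each array left out. The last count was 3 without replicate 2 of the CD34-Flt3- group, by the Csf3r probe set, and also 3 at an adjusted p under 0.10, by the brightest Csf2rb probe set. The count for CD34+Flt3hi against CD34+Flt3- cells became 2 with the code as a fixed or a random replicate block, with only the 4 arrays compared and at an adjusted p under 0.10, and 0 with no intensity trend.

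Of 342 values of single genes, 8 changed sign, none of them called. Il3ra in CD34+Flt3hi against CD34-Flt3- cells was -0.21 and -0.000649 with the fixed and the random replicate block and -0.18 to 0.22 with each array left out. Csf3r in CD34+Flt3hi against CD34+Flt3- cells was -0.034 with quantile normalization repeated and -0.011 to 0.18 with each array left out. Csf2rb2 ran from -1.68 to 0.26 in CD34+Flt3- against CD34-Flt3- cells and from -1.38 to 0.56 in CD34+Flt3hi against CD34+Flt3- cells. The fixed replicate block fits the lone array of code C exactly, and its random counterpart used a correlation of 0.11. A fit of 4 arrays could not be made for the F test and the middle contrast. Causes of these changes were not tested.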
